A study of Mus musculus with 12 samples.

Results

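Kidneys taken 5 days after diphtheria toxin were compared with control kidneys in Pod-TRECK mice, whose podocytes bear a receptor for that toxin. The comparison holds 6 of the 12 libraries of the series, chosen by their labels: 3 from mice given 100 ng of toxin into the peritoneum and 3 from mice given nothing. All 6 mice carried the transgene, and the controls had no vehicle injection, so toxin and injection cannot be told apart. Each library is poly(A)-selected RNA of whole kidney and is described as a biological replicate, taken here as 1 mouse although the labels do not spell that out, and all 6 carry the same batch label. No toxin-treated mice without the receptor are in the series, so a direct action of the toxin and the loss of podocytes cannot be told apart. The sources used here do not give the promoter of the transgene, the strain, the age of the mice or the hour of harvest.

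Podocytes are the octopus-shaped epithelial cells on the outer face of the glomerular capillary. Their interlocking foot processes are bridged by the slit diaphragm, built on nephrin and its partners, which keeps protein out of the urine. Mature podocytes are held outside the cell cycle and are poorly replaced when lost. Proteins that then leak through the filter reach the tubule, whose epithelium can take up injury, inflammatory and repair programs. Rodent cells bind diphtheria toxin weakly, and a human-type receptor makes a chosen cell type sensitive to it.

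Counts per library ran from 35386127 to 46420299, and 18180 of 56722 genes had enough counts to be tested. A gene with enough counts in 1 group alone could only be called higher in that group. At an adjusted p under 0.05 in edgeR, 6982 genes were called, which is 38.4% of those tested. Of all tested genes 3512 were higher at day 5 (19.3%) and 3470 lower (19.1%), and each list count below is to be read against these shares. The lists were chosen with earlier results of these data known, so a count above these shares is a description and not a test. Large changes were mostly rises: 413 called genes were over 4-fold higher and 80 over 4-fold lower. The first principal component of the 500 most variable genes held 84.1% of the variance and separated the groups. In 51.7% of tested genes the 3 day-5 libraries lay all above or all below the controls. Spearman correlations between replicates lay between 0.992 and 0.995, and all 6 libraries were from male mice by Xist and the genes of chromosome Y. Transcripts of the mitochondrial genome took 22.9% ± 0.684 of counts in controls and 19.1% ± 0.892 at day 5 (SD, n = 3, exact two-sided permutation p = 0.1, the smallest that 3 against 3 allows). Fold changes are day 5 over control on the log2 scale ± the standard error of the fit, with n = 3 libraries per group. They are relative to library sizes scaled by TMM (trimmed mean of M-values) factors, under which the median of all genes was -0.01. Scaling to library totals alone moved that median to 0.14 and the share of calls that were higher from 50.3% to 74.5% (65.7% in a fit of all 12 libraries), so small shifts of a whole list depend on the scaling. CPM values (counts scaled to a common library size with the same factors) are given per library in the order of replicates 1, 2 and 3.

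**Figure D1:**
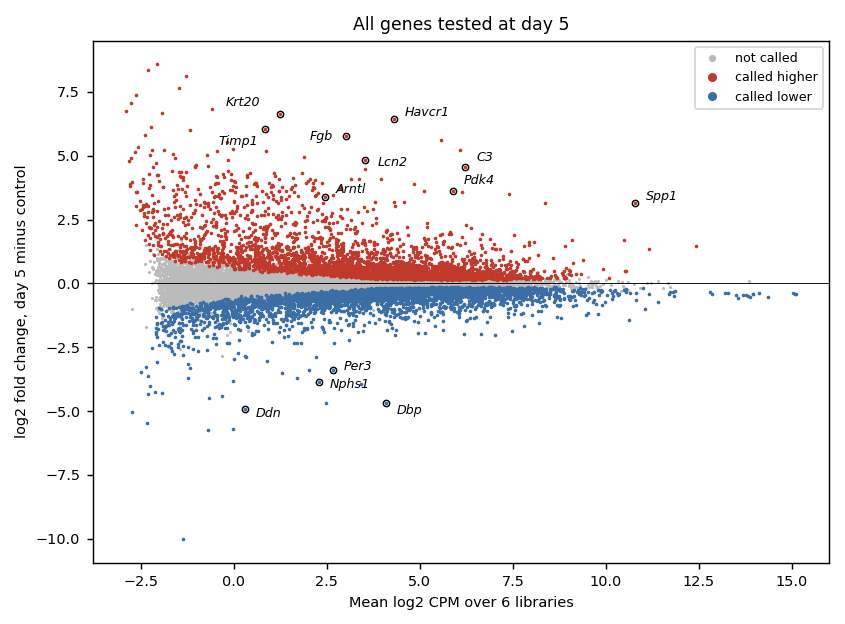
Each point is 1 of the 18180 genes tested, with its mean log2 CPM over the 6 libraries on the x axis and its log2 fold change, day 5 minus control, on the y axis. Red points were called higher, blue points lower and grey points were not called; Havcr1, Krt20, Timp1 and the fibrinogen chain Fgb stand above most of the cloud, and Nphs1, Ddn and Dbp below it.

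Most podocyte transcripts tested were lower in all 3 toxin mice, some of them nearly gone and others partly kept. Among the genes that fell, the RNA left ranged from 3.17% ± 0.974 of the control mean for Ddn to 71.3% ± 3.10 for Clic5, while the matrix genes Col4a3 and Npnt rose. Of 27 podocyte markers tested, 20 fell, 2 rose and 5 did not pass, and the list median was -0.94 on the log2 scale. In bulk tissue, fewer cells of a type and less RNA per cell cannot be told apart. RNA of these genes made by other kidney cells was not separated from that of podocytes, in falls or in rises. Nphs1, encoding nephrin (chromosome 7, positions 30157740 to 30186648 of GRCm39), was at 18.5, 16.7 and 20.5 CPM in the controls and at 0.987, 1.65 and 1.12 CPM at day 5. The fall in Nphs1 was 14.7-fold (edgeR adjusted p = 4.77e-06), and the groups were far apart.

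The depth of the fall differed widely between podocyte genes. Ddn, encoding dendrin of the slit diaphragm, went lowest: 5.89, 6.06 and 6.72 CPM in the controls and 0.192, 0.140 and 0.261 CPM at day 5, which left 3.17% ± 0.974 of the control mean (SD, n = 3). Nphs1 was left at 6.75% ± 1.90, Lmx1b, a transcription factor needed for podocyte development, at 7.87% ± 6.29, and Ptpro, a receptor tyrosine phosphatase of the podocyte surface, at 9.50% ± 1.60. Wt1, the transcription factor that marks podocyte nuclei, was at 6.78, 6.61 and 6.72 CPM in the controls and at 1.29, 1.42 and 1.30 CPM at day 5, or 19.9% ± 1.08 of control. All 3 toxin mice lay far below the controls in these genes, and Lmx1b, a low transcript, varied most between mice. More was left of other genes: Podxl, a surface sialomucin shared with endothelium, was left at 38.7% ± 3.44 (edgeR adjusted p = 8.78e-06). Synpo, encoding the foot process protein synaptopodin, was left at 52.2% ± 6.05 (edgeR adjusted p = 0.000107), and Clic5, an actin-associated chloride channel family member, at 71.3% ± 3.10.

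By role, 6 of 9 slit diaphragm genes fell and 2 rose. The summed level of that list ran from 225 to 235 CPM in the controls and from 239 to 255 CPM at day 5. The rises were Cd2ap, an adaptor that links the slit to actin, at 0.73 ± 0.05, and Fat1, a giant cadherin, at 0.45 ± 0.07. Of 18 genes of the foot process and podocyte surface 8 fell and 4 rose (1 rise in the 12-library fit), with a median of -0.10. That median changed sign with the scaling, to 0.05 with library totals alone. Of 9 podocyte transcription factors 7 fell and none rose, with a median of -1.13; Foxc1 and Zbtb7c did not pass. Among secreted and matrix genes of podocytes, 4 of 13 fell and 3 rose (2 and 1 in the 12-library fit). Sema3g, a secreted semaphorin, fell by 1.82 ± 0.07, and Vegfa, which feeds the glomerular endothelium and is also made in tubules, was at 118, 122 and 106 CPM in the controls and at 60.9, 67.1 and 58.5 CPM at day 5 (a fall of 0.89 ± 0.07, edgeR adjusted p = 5.56e-05). The collagen IV chains of the mature glomerular basement membrane did not go with the slit diaphragm: Col4a3 rose by 0.33 ± 0.07, and Col4a4 was at 0.03 ± 0.06 and Col4a5 at 0.16 ± 0.06, neither called. Npnt, encoding nephronectin of basement membranes, was at 86.1, 113 and 86.7 CPM in the controls and rose to 164, 148 and 156 CPM (edgeR adjusted p = 0.00106). Col4a3 and Fat1 were not called in the 12-library fit.

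**Figure D2:**
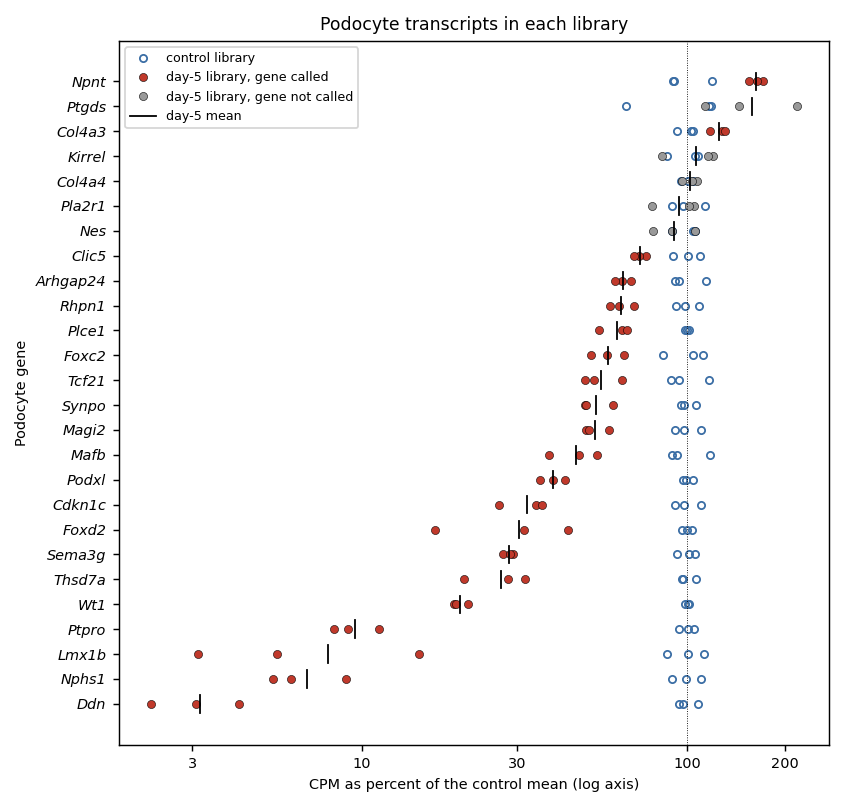
CPM of 26 podocyte genes in each library as a percent of the gene's control mean, on a log axis. Open blue circles are controls, filled circles day-5 libraries (red where the gene was called, grey where not) and black ticks day-5 means; the genes run from Ddn, at 3.17% of control, to Npnt, at 163% of control.

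The cells next to the podocyte changed in part. Endothelial genes split, 6 higher and 4 lower of 19 tested, with a median of 0.12. Esm1, a proteoglycan of VEGF-responsive endothelium, was at 20.4, 25.7 and 24.8 CPM in the controls and at 8.74, 8.20 and 7.10 CPM at day 5, a fall of 1.56 ± 0.11 (edgeR adjusted p = 3.13e-05). Kdr, the main VEGF receptor, fell by 0.76 ± 0.10, and Ehd3, a marker of glomerular endothelium, fell by 0.46 ± 0.08. The calls of Esm1 and Kdr were lost in the 12-library fit, which called 3 endothelial genes higher and 1 lower. Pan-endothelial Pecam1, at 0.20 ± 0.08, and Emcn, at -0.11 ± 0.06, were not called. Plat, tissue plasminogen activator, rose by 1.05 ± 0.11, and Nos3, endothelial nitric oxide synthase, by 0.77 ± 0.13.

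Of 7 genes of the parietal epithelium, which lines Bowman's capsule, 6 rose, and Pax2 was at -0.08 ± 0.10 and not called. Their summed level ran from 136 to 149 CPM in the controls and from 253 to 287 CPM at day 5. Cd44, a hyaluronan receptor of activated parietal cells, was at 1.81, 1.26 and 1.08 CPM in the controls and at 6.14, 6.82 and 8.48 CPM at day 5. Its groups did not overlap, as in 51.7% of all tested genes. Cldn1, a tight junction claudin, rose by 1.90 ± 0.09 (edgeR adjusted p = 5.84e-06). Injured tubules also express Cd44, Cldn1 and Akap12, and the part of each cell type was not tested. Among 12 genes of mesangium, pericytes and smooth muscle, 5 rose and 1 fell. Acta2, smooth muscle actin, rose by 0.99 ± 0.21, Tagln by 1.24 ± 0.15 and Pdgfrb, the platelet-derived growth factor receptor of these cells, by 0.48 ± 0.11. The fall was Itga8, the mesangial partner of nephronectin, at -0.43 ± 0.13, and its call was lost without control replicate 1 (adjusted p = 0.0867) or 3 (0.0588), without day-5 replicate 1 (0.068) or 2 (0.0572), and with library totals alone (0.132), all by edgeR. The 12-library fit lost the calls of Itga8 and of all 5 rises, Acta2 and Tagln among them, and called 3 parietal genes higher.

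Genes of the injured tubule rose together in all 3 mice. Of 31 tested, 27 rose and none fell, and the list median was 1.498 on the log2 scale, against -0.01 for all genes. Havcr1, encoding the phosphatidylserine receptor KIM-1 of injured proximal tubules, was at 2.78, 1.71 and 2.01 CPM in the controls and at 197, 124 and 237 CPM at day 5. It rose 85.7-fold (edgeR adjusted p = 5.33e-06), and day-5 replicate 2 was the lowest of the 3. Krt20, an intermediate filament gene, was at 0.0994, 0.628 and 0.0515 CPM in the controls and at 27.1, 18.7 and 33.5 CPM at day 5, with control replicate 2 above the other controls. Lcn2, the iron-siderophore carrier NGAL, was at 2.73, 1.89 and 1.88 CPM in the controls and at 58.4, 51.4 and 74.3 CPM at day 5. Timp1, an inhibitor of metalloproteinases, rose from 0.298, 0.126 and 0.180 CPM to 11.1, 12.9 and 16.3 CPM. In each of these genes the groups were separated by an order of magnitude or more.

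Spp1, encoding osteopontin, was abundant before toxin and became a dominant transcript. It was at 603, 544 and 640.0 CPM in the controls and at 5710.2, 3911 and 6099 CPM at day 5 (a rise of 3.14 ± 0.17, edgeR adjusted p = 8.94e-06). Per kilobase of gene model its level went from 221 to 1942 CPM, or from rank 140 to rank 25 among tested genes with a symbol. The gene Gm42793 overlaps Spp1 on the same strand, and its counts, at 8.88 times the control level, cannot be told apart from those of Spp1. Sox9, a transcription factor of regenerating tubule cells, was at 0.273, 0.402 and 0.438 CPM in the controls and at 7.13, 5.29 and 4.49 CPM at day 5. Vcam1, an adhesion molecule of tubules that fail to recover, rose by 3.20 ± 0.12 (edgeR adjusted p = 3.19e-06). The injury genes that did not pass were Krt7 at 0.08 ± 0.06, Itgb6 at 0.31 ± 0.17, Krt19 at 0.86 ± 0.40 and Ccn1 at 0.43 ± 0.16. Tnfrsf12a, the TWEAK receptor, had the smallest adjusted p of all genes along with the transcription factor gene Klf6. Tnfrsf12a was at 7.03, 7.31 and 6.54 CPM in the controls and at 59.5, 53.4 and 58.6 CPM at day 5 (edgeR adjusted p = 7.36e-07).

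The 3 fibrinogen chain genes, which make the clot protein that is normally a liver product, rose together. They lie side by side on chromosome 3, Fgg at 82915031 to 82922356, Fga at 82933383 to 82940934 and Fgb at 82947448 to 82957170 of GRCm39. Fga was at 12.3, 11.6 and 9.48 CPM in the controls and at 421, 308 and 513 CPM at day 5. Fgg was at 6.16, 7.41 and 7.03 CPM in the controls and at 353, 234 and 419.7 CPM at day 5. Fgb was lower throughout, at 0.895, 1.38 and 0.978 CPM in the controls and at 63.2, 44.9 and 69.7 CPM at day 5. The rises were 5.22 ± 0.20, 5.61 ± 0.23 and 5.77 ± 0.22 (edgeR adjusted p = 3.19e-06 for each). In all 3 genes day-5 replicate 3 was the highest and replicate 2 the lowest, the same order as in Havcr1 and Spp1. Per kilobase Fgg went from 3.28 to 160.3 CPM, against 0.285 to 15.6 for Fgb. Albumin mRNA, another liver product, moved the other way: Alb was at 6.24, 5.71 and 5.92 CPM in the controls and at 2.93, 2.26 and 2.17 CPM at day 5, and its call was lost in the 12-library fit. Of 16 genes of coagulation and plasminogen activation 14 rose (9 in the 12-library fit), while Plau, urokinase, was at -0.38 ± 0.13 and not called.

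Liver fibrinogen genes respond to interleukin-6 through STAT3, and an element with the letters CTGGGAA is known in rat and human fibrinogen promoters. The Fgb promoter is printed to show where these letters stand, here in capitals. It covers 250 bases before to 50 after the start, from RefSeq on GRCm38.p6, minus strand, chr3:83049814-83050113.
Fgb: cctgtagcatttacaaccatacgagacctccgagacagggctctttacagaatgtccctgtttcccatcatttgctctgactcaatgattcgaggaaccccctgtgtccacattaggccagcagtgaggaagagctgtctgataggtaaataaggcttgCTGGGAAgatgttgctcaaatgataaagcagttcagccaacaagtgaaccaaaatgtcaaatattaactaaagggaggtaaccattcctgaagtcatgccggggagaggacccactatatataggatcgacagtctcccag
Searched on both strands, CTGGGAA was found once in this window, 91 bases before the start. It was also in the Fgg promoter but not in that of Fga. It was found in 4 of 16 promoters of the coagulation list (25.0%), in 2 of 15 of the acute phase list (13.3%) and in 11.02% of all 32544 promoters in the table. A match of letters is a description and not a binding site.

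Cell division genes had the largest median shift of the 66 lists examined. Of 40 genes of mitosis and cytokinesis 39 rose (median 3.73 on the log2 scale), and of 38 genes of DNA replication 35 rose, with a median of 1.37. Cdk1, the kinase that starts mitosis, was at 1.54, 1.06 and 0.747 CPM in the controls and at 13.0, 21.7 and 21.4 CPM at day 5, a rise of 4.06 ± 0.28 (edgeR adjusted p = 2.44e-05). Top2a, the topoisomerase that untangles replicated DNA, was at 3.18, 3.09 and 1.49 CPM in the controls and at 29.6, 49.9 and 53.6 CPM at day 5. Mki67, the source of the Ki-67 proliferation antigen, was at 5.39, 3.77 and 2.57 CPM in the controls and at 39.3, 72.6 and 87.6 CPM at day 5. Day-5 replicate 1 was the lowest of the toxin mice in each of these genes, and control replicate 1 the highest control. The same order held for the mitosis list: its median log2 difference from the control mean was 3.02, 3.78 and 3.96 in day-5 replicates 1, 2 and 3 and 0.50, -0.02 and -0.43 in the controls. The single fall of the mitosis list was Pttg1, securin, at -0.33 ± 0.07, which was not called with library totals alone (edgeR adjusted p = 0.0923).

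The median rise of the replication genes was smaller than that of the mitosis genes. Mcm5, a subunit of the replicative helicase, was at 3.70, 2.74 and 2.21 CPM in the controls and at 15.3, 18.8 and 19.6 CPM at day 5 (edgeR adjusted p = 2.32e-05). Lig1, the ligase that joins replicated fragments, was at 3.98, 3.19 and 3.35 CPM in the controls and at 13.1, 13.3 and 15.01 CPM at day 5. Pcna, the sliding clamp, which also serves DNA repair, started at a higher level and rose by 1.14 ± 0.07. Orc1, of the origin recognition complex, had 3 counts in the control libraries together and 62 at day 5, a ratio of 21.1 relative to library totals with an exact 95% counting interval of 6.90 to 105. Cdc20, which activates the anaphase-promoting complex, rose by 3.72 ± 0.37, and Ccnb1, cyclin B1, by 4.33 ± 0.42. Entry genes of the cycle were mixed: 6 of 14 rose and 3 fell, and the 12-library fit lost the calls of the falls. Myc was at 1.94, 2.14 and 3.91 CPM in the controls and at 15.5, 13.1 and 12.3 CPM at day 5. Ccnd1, cyclin D1, was at 149.6, 149.7 and 162 CPM in the controls and at 115, 118 and 109.7 CPM at day 5, a fall of 0.43 ± 0.06 (edgeR adjusted p = 0.000557) whose call was lost in the 12-library fit.

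Promoters of 3 of these genes are shown because replication and mitosis genes are known for different control elements: E2F sites for S phase, and the CHR element with CCAAT boxes for mitosis. Capitals mark the letters TTTGAA (CHR) and CCAAT in Cdc20 and Ccnb1, and TTTGGCGC, TTTCCCGC or TTTCGCGC (E2F) in Mcm5, on either strand. The windows are from RefSeq on GRCm38.p6, 5′ to 3′ along each gene: Cdc20 at chr4:118437294-118437593 on the minus strand, Ccnb1 at chr13:100786437-100786736 on the minus strand and Mcm5 at chr8:75109259-75109558 on the plus strand.
Cdc20: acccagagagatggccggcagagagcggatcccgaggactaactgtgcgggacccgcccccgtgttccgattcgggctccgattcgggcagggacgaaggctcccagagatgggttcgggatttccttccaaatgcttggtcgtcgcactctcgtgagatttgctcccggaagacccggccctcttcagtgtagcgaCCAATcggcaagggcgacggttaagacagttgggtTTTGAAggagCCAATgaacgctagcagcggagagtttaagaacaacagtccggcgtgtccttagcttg
Ccnb1: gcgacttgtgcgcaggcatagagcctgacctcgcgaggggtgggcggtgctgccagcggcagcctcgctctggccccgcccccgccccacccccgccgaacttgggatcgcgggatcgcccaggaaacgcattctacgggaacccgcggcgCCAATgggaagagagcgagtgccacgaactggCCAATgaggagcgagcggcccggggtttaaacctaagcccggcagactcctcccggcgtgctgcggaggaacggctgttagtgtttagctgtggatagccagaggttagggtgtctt
Mcm5: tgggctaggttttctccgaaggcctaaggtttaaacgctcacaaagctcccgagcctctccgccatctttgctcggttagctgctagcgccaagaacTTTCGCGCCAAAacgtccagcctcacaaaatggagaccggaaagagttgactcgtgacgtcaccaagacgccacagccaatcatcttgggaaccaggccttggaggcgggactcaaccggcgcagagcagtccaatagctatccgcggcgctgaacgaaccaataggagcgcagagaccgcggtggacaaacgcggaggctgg
Cdc20 holds CCAAT 53 and 8 bases before the start and TTTGAA 18 bases before it. Ccnb1 holds CCAAT 99 and 67 bases before the start and no TTTGAA in this window. In Mcm5 the 2 E2F matches, 153 and 149 bases before the start, lie on opposite strands and overlap. TTTGAA was found in 27 of 36 promoters of the mitosis list (75.0%), in 4 of 37 of the replication list (10.8%) and in 17.8% of all 32544 promoters. These E2F letters were found in 1 of 36 mitosis promoters (2.78%), in 12 of 37 replication promoters (32.4%) and in 1.86% of all promoters. CCAAT was in 66.7% of mitosis promoters, 59.5% of replication promoters and 37.4% of all. Promoters were in the table for 33 of 40 measured mitosis genes and 31 of 38 replication genes. Some genes have several promoters, and these matches do not show that a factor binds.

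Inhibitors of the cell cycle rose beside its drivers. Cdkn1a, encoding p21, was at 2.14, 2.99 and 2.19 CPM in the controls and at 41.3, 56.2 and 64.1 CPM at day 5, a 22.1-fold rise (edgeR adjusted p = 4.77e-06). Of 6 genes of such inhibitors 4 rose, and Cdkn1c, p57, which podocytes express, fell by 1.63 ± 0.13, a call lost in the 12-library fit. Cdkn2a, encoding p16 and p19, had 1 count in each group. Cdkn1a is a target of p53, and 12 of 21 p53 targets rose, none fell and 9 did not pass, with a median of 0.53. Btg2, an antiproliferative gene, was at 15.4, 12.6 and 14.2 CPM in the controls and at 32.2, 32.4 and 26.4 CPM at day 5 (edgeR adjusted p = 9.56e-05). Mdm2, the p53 ubiquitin ligase, was at 34.6, 35.1 and 34.9 CPM in the controls and at 36.6, 37.5 and 37.9 CPM at day 5 and was not called. Ccng1 at -0.03 ± 0.05 and Zmat3 at 0.06 ± 0.07 were not called either. Sesn2, a stress-induced regulator of growth signalling, rose by 1.63 ± 0.11.

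**Figure D3:**
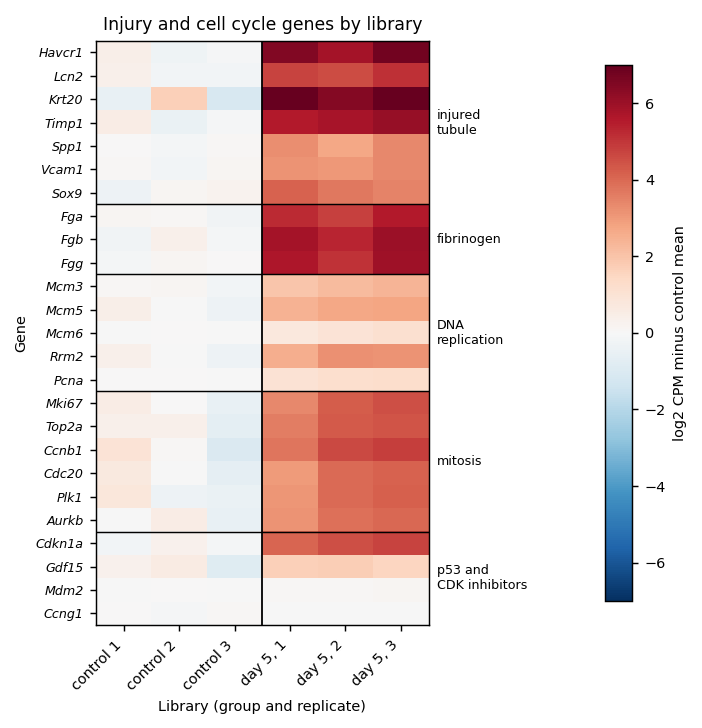
Log2 CPM minus the gene's control mean (with a pseudocount of 0.05 CPM) for 25 genes in each of the 6 libraries, red above and blue below the control mean. Injury, fibrinogen, replication and mitosis genes and Cdkn1a are red in all 3 day-5 libraries, with mitosis palest in replicate 1. The p53 targets Mdm2 and Ccng1 stay near the control mean, and Gdf15 is drawn in the same block as these and Cdkn1a.

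Many transcription factors of the early stress response rose, while Fos, Fosb and Nr4a1 were not called. Of 25 tested 16 rose, 1 fell and 8 did not pass, and the 12-library fit called 10 rises. Fosl1, encoding the AP-1 subunit FRA1, was at 0.0248, 0.0503 and 0.0257 CPM in the controls and at 2.06, 2.47 and 2.61 CPM at day 5, which makes 79.5 times the pooled control counts relative to library totals (counting interval 30.7 to 294). Maff, a small MAF factor, was at 0.919, 1.41 and 1.21 CPM in the controls and at 14.0, 15.98 and 14.8 CPM at day 5 (edgeR adjusted p = 3.19e-06). Klf6 was tightly grouped, at 24.9, 23.6 and 25.1 CPM in the controls and at 94.4, 93.9 and 94.8 CPM at day 5. Fos itself was at 5.02, 3.62 and 3.89 CPM in the controls and at 6.06, 6.29 and 3.07 CPM at day 5, with overlapping groups and no call. Egr2 rose by 2.85 ± 0.35 and Jun by 0.54 ± 0.16. The fall was Dusp6, at -0.25 ± 0.07. Its call was lost without control replicate 1 (adjusted p = 0.0604) or 3 (0.0922) or day-5 replicate 3 (0.0876), and with library totals alone (0.306), all by edgeR, and in the 12-library fit.

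NF-kB genes rose as a group: 15 of 17 and none lower, with a median of 1.00. These are subunits of the factor and the inhibitors that it induces. Nfkb2, the p100 subunit, was at 8.90, 8.65 and 7.96 CPM in the controls and at 29.4, 29.98 and 32.0 CPM at day 5 (edgeR adjusted p = 3.19e-06). Relb, its partner, rose by 1.76 ± 0.22, and Tnfaip3, the feedback inhibitor A20, by 1.74 ± 0.11. Rela, the main activating subunit, rose by 0.44 ± 0.07. Ikbke and Tnfaip2 did not pass.

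An Nfkb2 promoter is printed because the gene is known to be induced by NF-kB itself. Capitals mark the kB letters, which are GGGA, any base and then TTTCC or TTCC on either strand, in the first of its 3 RefSeq windows, chr19:46304487-46304786 on the plus strand of GRCm38.p6.
Nfkb2: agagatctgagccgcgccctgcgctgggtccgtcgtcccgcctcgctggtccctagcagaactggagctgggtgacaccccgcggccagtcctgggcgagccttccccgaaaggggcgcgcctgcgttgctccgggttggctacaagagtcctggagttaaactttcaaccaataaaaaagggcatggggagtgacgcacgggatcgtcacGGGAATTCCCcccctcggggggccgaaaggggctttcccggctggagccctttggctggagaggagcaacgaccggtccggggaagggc
The 2 matches start 39 and 38 bases before the start and overlap. The kB letters were in 8 of 17 promoters of the NF-kB list (47.1%), in 4 of 15 chemokine promoters (26.7%) and in 2.09% of all 32544 promoters. Promoters were in the table for 14 of 17 measured NF-kB genes, and 6 of these 14 genes held the letters (42.9%). The other Nfkb2 windows overlap each other and share a match, so the promoter count holds that site more than once.

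Chemokines and cytokines rose selectively. Of 22 chemokines 7 had too few counts to be tested, and of the 15 tested 10 rose and 1 fell. Some of the rises, Cxcl5 among them, had enough counts at day 5 alone and could only be called higher. Cxcl1, which draws neutrophils, was at 1.57, 0.829 and 0.669 CPM in the controls and at 20.7, 16.3 and 15.03 CPM at day 5 (edgeR adjusted p = 1.79e-05). Ccl2, which draws monocytes, was at 0.298, 0.251 and 0.257 CPM in the controls and at 3.59, 3.47 and 2.63 CPM at day 5. Cxcl5 had 3 counts in the controls together and 71 at day 5, a ratio of 24.2 (counting interval 7.95 to 120). The fall was Cxcl12, a homeostatic chemokine also made by podocytes, which was at 115, 77.0 and 105 CPM in the controls and at 41.97, 49.3 and 42.9 CPM at day 5 (a fall of 1.15 ± 0.14, edgeR adjusted p = 0.000363). Among 26 cytokines and receptors 8 were not tested, and of the 18 tested 12 rose and 1 fell. Lif, of the interleukin-6 family, was at 0.124, 0.276 and 0.180 CPM in the controls and at 4.77, 3.84 and 2.89 CPM at day 5. Il1rn, the interleukin-1 receptor antagonist, rose by 5.03 ± 0.33, while Il1b, the cytokine it opposes, was at -0.34 ± 0.39 and not called. Tnf had 6 counts in the controls and 10 at day 5, and Il6 had 1 and 17, a ratio of 17.4 (counting interval 2.72 to 726). Tnfsf10, the death ligand TRAIL, fell by 1.32 ± 0.08 (edgeR adjusted p = 1.29e-05).

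Acute phase genes, best known from liver, rose in 15 of 17 cases and fell in none, with a median of 1.54. Stat3, the transcription factor of this response, was at 39.9, 35.1 and 37.3 CPM in the controls and at 114, 99.2 and 113 CPM at day 5 (edgeR adjusted p = 5.84e-06). Osmr, the oncostatin M receptor, rose by 1.96 ± 0.10, and Socs3, the feedback inhibitor of STAT3, by 2.24 ± 0.18. Saa1, serum amyloid A, had 1 count in the controls together and 416 at day 5, a ratio of 425 (counting interval 75.9 to 16838). Saa3 had 0 counts in the controls and 65 at day 5, at least 22.2-fold higher when the controls are set at a floor of 3 counts over the group. Such intervals cover counting error only. Saa1 and Saa3 had enough counts at day 5 alone, so within this list they could only be called higher. Hp, at 0.58 ± 0.83, and Orm1, at -1.28 ± 0.96, did not pass.

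Complement rose at its centre but not along every arm. Of 20 genes 11 rose and 2 fell (4 and 1 in the 12-library fit). C3, the component on which all pathways meet, was at 14.9, 19.0 and 12.8 CPM in the controls and at 316, 311 and 486 CPM at day 5, a 23.9-fold rise (edgeR adjusted p = 5.84e-06). C4b rose by 2.31 ± 0.32, and Cfi, the protease that inactivates C3b and C4b, by 1.62 ± 0.13. Cfb, of the alternative pathway, was at 0.06 ± 0.11 and was not called. Both falls were inhibitors on the cell surface, Cd55, which speeds decay of the convertases, at -0.88 ± 0.16 and Cd59a, which blocks the membrane attack complex, at -0.60 ± 0.08. The call of Cd55 was lost in the 12-library fit.

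Markers of immune cells changed in part. Among 25 genes of macrophages and monocytes there were 13 rises (3 in the 12-library fit) and 1 fall, and their summed level ran from 110 to 147 CPM in the controls and from 156 to 171 CPM at day 5. Cd14, a lipopolysaccharide co-receptor that injured tubules also make, was at 2.53, 2.09 and 2.19 CPM in the controls and at 14.1, 11.2 and 14.9 CPM at day 5. Cd68 rose by 1.52 ± 0.20 and Itgam, of monocytes and neutrophils, by 1.77 ± 0.31. Adgre1, encoding F4/80 of resident macrophages, was at 3.31, 2.56 and 2.19 CPM in the controls and at 2.77, 2.89 and 2.55 CPM at day 5 and was not called. Csf1r, the receptor that macrophages need to survive, was at 44.5, 41.7 and 35.6 CPM in the controls and at 23.5, 26.7 and 25.6 CPM at day 5, a fall of 0.68 ± 0.09 (edgeR adjusted p = 0.000552).

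Many transcripts of other leukocytes had low counts. Of 14 neutrophil genes only 5 had enough counts to be tested, and Ly6g, Camp and Mpo had 0 counts in all 6 libraries. S100a8 was at 0.0745, 0.0251 and 0.0772 CPM in the controls and at 0.247, 0.536 and 0.481 CPM at day 5, and S100a9, with 7 and 41 counts, gave a ratio of 5.99 (counting interval 2.66 to 15.8). Ltf went the other way, with 41 counts in the controls and 19 at day 5, a ratio of 0.474 (counting interval 0.260 to 0.835), and was not called. The neutrophil genes called higher went from 4 to 1 or 2 when single libraries other than day-5 replicate 1 were left out. In the same list 1 gene was called lower by limma-voom, with the replicate block and without day-5 replicate 3. Of 9 T and NK cell genes 1, Lck, rose, and of 6 B cell genes 1, Ighm, fell. Lck was not called without control replicate 3 (edgeR adjusted p = 0.0659) or day-5 replicate 1 (0.0585) or 2 (0.0516), nor by DESeq2 (0.0885). The call of Ighm was lost on leaving out any library but control replicate 3 (edgeR adjusted p from 0.0551 to 0.102), with library totals alone (0.0541) and by limma-voom (0.052). Of 16 genes of antigen presentation 13 rose (3 in the 12-library fit) and none fell, with modest sizes: B2m by 0.65 ± 0.08 and Cd74, the class II invariant chain, by 0.63 ± 0.12. Outside this list, and chosen after their values were seen, the MHC class I genes H2-Q6 and H2-Q7 fell by 2.01 ± 0.17 and 1.84 ± 0.15. Of 28 interferon-responsive genes 15 rose and 1 fell, with Gbp3 at 1.02 ± 0.21 and Irf7 at 0.74 ± 0.12, and the rises numbered 9 without control replicate 3. The fall was Rsad2 at -0.48 ± 0.16, whose groups overlapped. Its call was lost on leaving out any library but control replicate 3 or day-5 replicate 1, and the 12-library fit called 7 interferon rises and not Irf7.

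Extracellular matrix genes rose in 23 of 29 cases (13 in the 12-library fit) and fell in none, with a median of 0.96. Tnc, tenascin C of wounds, was at 4.77, 3.02 and 3.76 CPM in the controls and at 21.1, 27.6 and 31.8 CPM at day 5 (edgeR adjusted p = 2.47e-05). Lox, which crosslinks collagen, was at 2.88, 1.68 and 2.34 CPM in the controls and at 8.88, 16.9 and 14.0 CPM at day 5. Col3a1, a fibrillar collagen, was at 37.9, 23.2 and 25.2 CPM in the controls and at 81.8, 119 and 134 CPM at day 5. In Tnc and Col3a1 day-5 replicate 1 was the lowest of the toxin mice, and the list as a whole kept this order, with median differences from the control mean of 0.62, 1.19 and 1.21. Postn, a marker of matrix-making fibroblasts, at 0.68 ± 0.41, and Lum and Dcn were not called. Of 18 metalloproteinases and inhibitors 11 rose and 1 fell. The fall was Timp3, at -0.51 ± 0.09, a call lost in the 12-library fit. The summed level of the list went down, from 1471 to 1676 CPM across the controls to 1158 to 1331 CPM across the day-5 libraries. Adamts4, an aggrecanase, was at 0.845, 0.905 and 0.463 CPM in the controls and at 8.47, 10.7 and 8.48 CPM at day 5.

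Growth factor genes moved in both directions. Of 26 genes of the TGF-beta, BMP and activin families 9 rose and 6 fell (3 falls in the 12-library fit). Inhbb, an activin subunit, was at 1.32, 0.930 and 1.75 CPM in the controls and at 9.16, 12.6 and 9.08 CPM at day 5 (edgeR adjusted p = 4.21e-05). Chrdl1, a BMP antagonist, was at 6.66, 7.39 and 7.90 CPM in the controls and at 0.987, 1.96 and 1.403 CPM at day 5. Bmp7, which protects tubules, fell by 0.70 ± 0.06, a call lost in the 12-library fit. Among EGF receptor ligands, Egf, made in the thick ascending limb and distal tubule, was at 1288, 1267 and 1502 CPM in the controls and at 580.0, 644 and 533 CPM at day 5, a fall of 1.21 ± 0.09 (edgeR adjusted p = 4.26e-05) that the 12-library fit did not call. Areg, amphiregulin, had 1 count in the controls together and 101 at day 5, a ratio of 103 (counting interval 18.1 to 4118). Nrg1, neuregulin 1, rose by 1.67 ± 0.15 and Hbegf by 0.55 ± 0.13. Egfr, the receptor, was at 0.33 ± 0.13 and not called. Outside these families, the keratin gene Krt14 rose by 2.18 ± 0.40, with 23 counts in the controls together and 115 at day 5.

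Along the nephron, genes of every segment fell, with list medians between -0.28 and -0.57 on the log2 scale. In the proximal tubule, 13 of 24 genes of the early segments fell and 1 rose (median -0.28), and 6 of 10 of the late segment fell (median -0.51). Slc34a1, the main phosphate transporter, was at 3377, 3681 and 3451 CPM in the controls and at 2142, 2295 and 1884 CPM at day 5 (edgeR adjusted p = 0.000283). Slc7a13, an amino acid transporter of the S3 segment, was at 645, 705 and 604 CPM in the controls and at 285, 275 and 235 CPM at day 5. Lrp2, the protein uptake receptor megalin, was at -0.19 ± 0.08 and Slc5a12, a lactate transporter, at -0.19 ± 0.09, and neither was called. The rise was G6pc, the last enzyme of gluconeogenesis, at 0.99 ± 0.19, and a second gene was called higher without day-5 replicate 1. With library totals alone, 8 genes of the early segments fell and 3 rose. The 12-library fit lost the calls of Slc34a1 and Slc7a13, and of the proximal tubule lists 2 falls of the early segments were called there and the falls of the late segment were lost.

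Of 13 loop genes 10 fell, against 4 calls in the 12-library fit. Bsnd, the chloride channel subunit barttin, was at 37.5, 37.1 and 37.2 CPM in the controls and at 19.9, 16.9 and 16.9 CPM at day 5, and Slc12a1, the sodium-potassium-chloride cotransporter, fell by 0.73 ± 0.09. Umod, encoding uromodulin and specific to the same limb, was at 2597, 2601 and 2750.3 CPM in the controls and at 2699, 2679.6 and 3039 CPM at day 5 and was not called. Of 14 distal and connecting tubule genes 12 fell, again against 4 in that fit. Pvalb, a calcium buffer of the early distal tubule, was at 13.0, 14.4 and 15.9 CPM in the controls and at 3.51, 2.89 and 2.14 CPM at day 5, a fall of 2.35 ± 0.17 (edgeR adjusted p = 2.96e-05) that the 12-library fit did not call. Wnk4, a kinase that controls Slc12a3, was at 82.2, 79.0 and 82.2 CPM in the controls and at 39.5, 40.5 and 41.0 CPM at day 5. Slc12a3, the thiazide-sensitive cotransporter, fell by 0.51 ± 0.07.

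In the collecting duct, 10 of 13 principal cell genes and 9 of 14 intercalated cell genes fell, against 3 and 2 in the 12-library fit. Aqp3, the basolateral water channel, was at 65.2, 63.6 and 85.9 CPM in the controls and at 34.5, 33.3 and 30.7 CPM at day 5. Slc4a1, the chloride-bicarbonate exchanger of type A intercalated cells, fell by 1.33 ± 0.10 (edgeR adjusted p = 3.42e-05), a call lost in the 12-library fit. Sgk1, a kinase induced by aldosterone and glucocorticoids, went the other way, from 54.0, 52.4 and 91.8 CPM to 200.3, 243 and 214 CPM. Of 20 transcription factors of nephron identity 10 fell and 4 rose (4 and 2 in the 12-library fit). Irx3, of the intermediate nephron segments, was at 34.4, 39.3 and 39.3 CPM in the controls and at 21.3, 20.3 and 19.1 CPM at day 5, and Hnf4a, of proximal tubule, was at -0.20 ± 0.07 and not called. Of 19 organic ion and drug transporters 12 fell and 3 rose, and the 12-library fit lost the calls of all these falls. Slco1a1 was at 278, 312 and 221 CPM in the controls and at 38.3, 96.7 and 65.9 CPM at day 5, and the efflux pump gene Abcb1b rose by 0.84 ± 0.19.

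**Figure D4:**
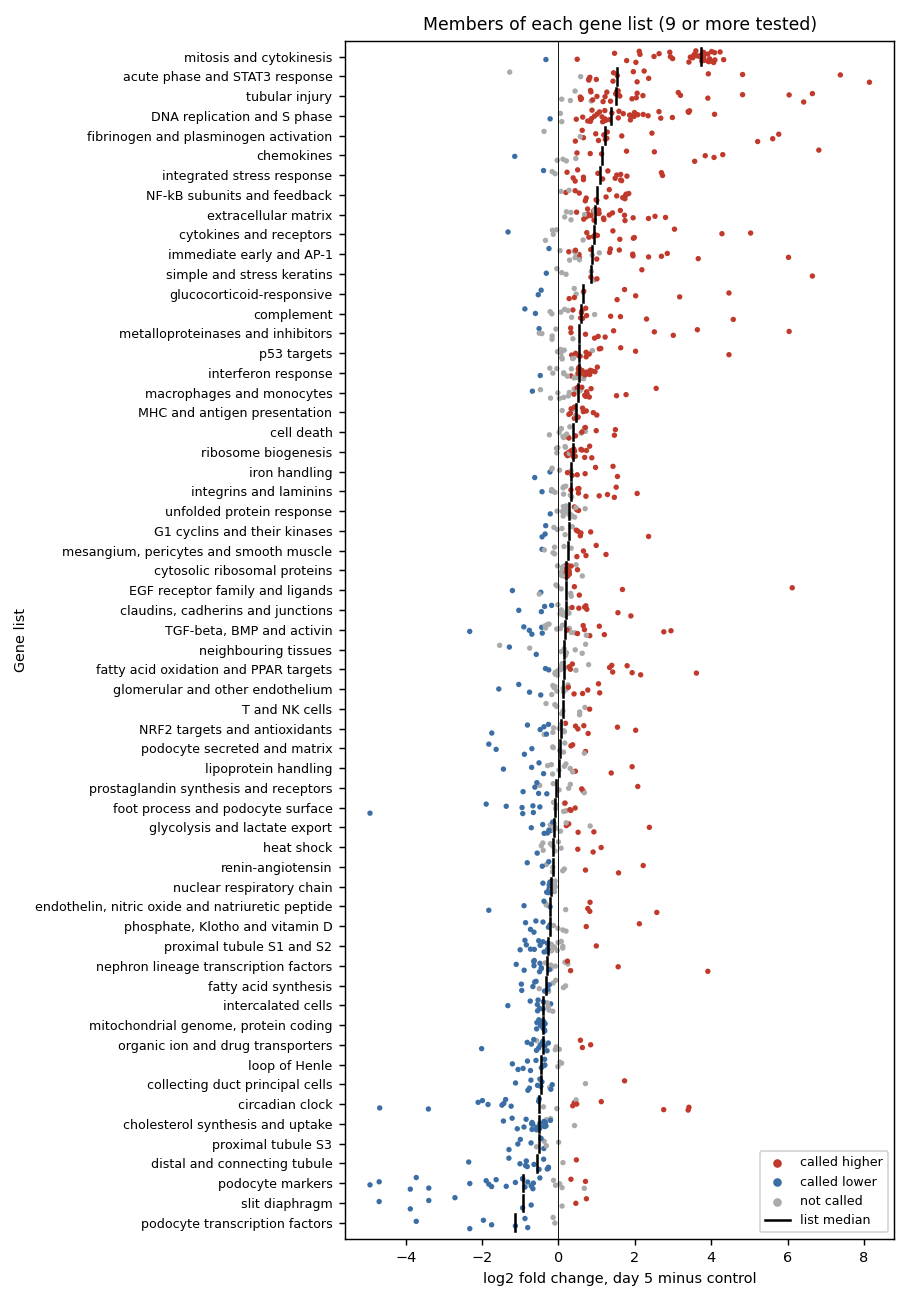
Log2 fold change, day 5 minus control, of every tested member of the lists with 9 or more tested members, 1 row a list, ordered by list median (black bar). Red points were called higher, blue lower and grey were not called; mitosis stands at the top with a median of 3.73, and podocyte transcription factors at the bottom with -1.13.

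The genes of the circadian clock moved far, and in both directions. The clock is a loop in which BMAL1 (Arntl) with CLOCK or NPAS2 drives the Per, Cry, Ciart, Nr1d, Dbp and Tef genes through E-boxes, and in which NR1D repressors act back on Arntl, Npas2 and Nfil3. Of 21 clock genes 11 fell and 7 rose. Dbp, an output factor, was at 93.2, 59.2 and 108 CPM in the controls and at 3.51, 3.31 and 3.35 CPM at day 5, a 25.7-fold fall (edgeR adjusted p = 5.89e-06). Per3, a repressor, was at 20.8, 17.3 and 22.9 CPM in the controls and at 1.84, 2.05 and 1.86 CPM at day 5. Tef was at 205, 172 and 222 CPM in the controls and at 43.9, 55.9 and 50.6 CPM at day 5. The day-5 libraries were close together in each of these genes and far below the controls.

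The activators lay on the other side. Arntl was at 1.07, 3.44 and 0.927 CPM in the controls and at 17.2, 20.8 and 19.3 CPM at day 5, a rise of 3.40 ± 0.38 (edgeR adjusted p = 0.000245). Npas2 was at 1.12, 1.63 and 0.412 CPM in the controls and at 10.03, 11.9 and 12.0 CPM at day 5. Nfil3, a repressor of Dbp targets, was at 0.969, 5.53 and 1.65 CPM in the controls and at 18.7, 18.3 and 18.1 CPM at day 5. Control replicate 2 had the highest Arntl, Npas2 and Nfil3 and the lowest Dbp, Tef and Ciart of the controls, so that the controls also differed among themselves along this axis. Clock rose by 0.41 ± 0.07 and Cry1, a late repressor, by 1.12 ± 0.29. Per1, which glucocorticoids also induce, was at 15.5, 11.7 and 25.2 CPM in the controls and at 18.6, 27.2 and 26.3 CPM at day 5 with no call, and Nr1d1 fell by only 0.50 ± 0.11. The hour of harvest and the feeding state of each mouse are not in the labels, so a difference in the time of day between the groups and an effect of the toxin cannot be told apart.

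**Figure D5:**
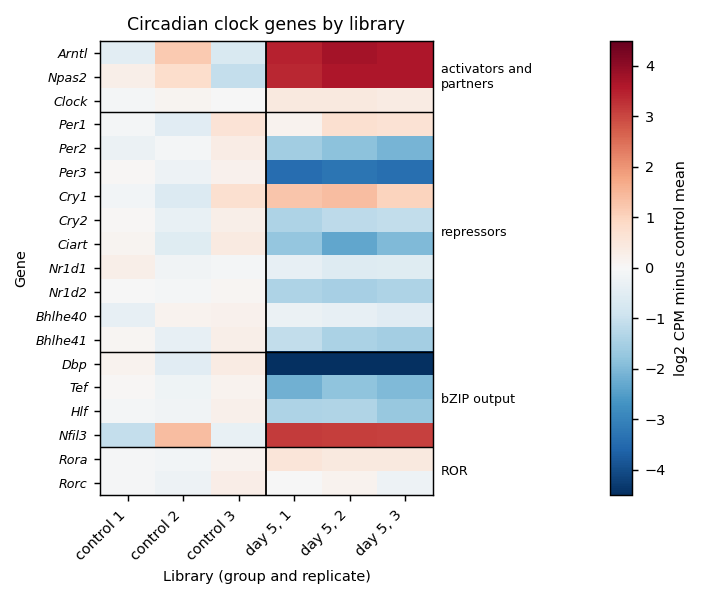
Log2 CPM minus the gene's control mean (pseudocount of 0.05 CPM) for 19 clock genes in each of the 6 libraries, grouped by role. Arntl, Npas2 and Nfil3 are red and Per3, Dbp and Tef blue in all 3 day-5 libraries, while control replicate 2 leans toward the day-5 pattern.

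Promoters of Ciart and Per3, which fell by 2.10 ± 0.27 and 3.41 ± 0.13, are printed because clock output genes are known for the E-box, CACGTG, and the D-box, TTATGTAA or TTATGCAA. Capitals mark the E-box in Ciart, at chr3:95882179-95882478, and the D-box in Per3, at chr4:151044616-151044915, both on the minus strand of GRCm38.p6 from RefSeq.
Ciart: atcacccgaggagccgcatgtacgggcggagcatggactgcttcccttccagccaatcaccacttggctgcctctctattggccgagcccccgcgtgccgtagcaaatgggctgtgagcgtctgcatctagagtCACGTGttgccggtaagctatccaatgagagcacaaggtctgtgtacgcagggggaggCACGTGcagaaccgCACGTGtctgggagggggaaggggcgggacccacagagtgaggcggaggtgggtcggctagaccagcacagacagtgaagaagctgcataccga
Per3: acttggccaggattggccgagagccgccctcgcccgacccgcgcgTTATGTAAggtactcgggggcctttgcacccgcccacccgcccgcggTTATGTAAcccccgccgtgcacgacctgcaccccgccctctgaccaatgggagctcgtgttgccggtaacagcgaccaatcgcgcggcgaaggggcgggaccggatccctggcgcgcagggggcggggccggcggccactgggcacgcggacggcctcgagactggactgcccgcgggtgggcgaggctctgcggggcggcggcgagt
Ciart holds CACGTG 116, 58 and 44 bases before the start. Per3 holds TTATGTAA 205 and 158 bases before it, and no CACGTG in this window. Over the list, CACGTG was in 6 of 22 promoters (27.3%), against 7.17% of all 32544 promoters. The D-box was in 2 of 22 (9.09%), against 1.66%. Another motif, TAGGTCA of the ROR and NR1D receptors, was in 2 of 22 (9.09%), those of Arntl and Nfil3, against 2.61%. Promoters were in the table for 17 of 21 measured clock genes, and all motifs were searched on both strands.

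Genes of lipid synthesis fell, and some genes of lipid use rose. Of 24 genes of cholesterol synthesis and uptake 21 fell and none rose, with a median of -0.50. Nsdhl, an enzyme of sterol synthesis, was at 43.1, 43.9 and 42.2 CPM in the controls and at 27.9, 25.6 and 26.4 CPM at day 5 (edgeR adjusted p = 5.17e-05). Idi1, an enzyme of isoprenoid synthesis, was at 175, 180.0 and 137 CPM in the controls and at 68.7, 90.3 and 73.8 CPM at day 5. Insig1, the sterol sensor partner, fell by 1.21 ± 0.10, and Srebf2, the transcription factor of the pathway, by 0.35 ± 0.05. Sqle and Pmvk were among those that did not pass. With library totals alone 19 fell and 1 rose, and the 12-library fit called 12 falls. The sterol element letters TCACNCCAC were in 1 of 19 promoters of the list (5.26%) and in 1.24% of all. Of 14 genes of fatty acid synthesis 8 fell (5 with library totals alone, with 2 rises, and 2 in the 12-library fit), with Acss2, which makes acetyl-CoA from acetate, at -0.96 ± 0.06, a call lost in the 12-library fit, and Fasn at -0.97 ± 0.25.

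Of 26 genes of fatty acid oxidation and PPAR targets 10 rose and 2 fell. Pdk4, which shuts pyruvate out of mitochondria, was at 19.98, 16.04 and 14.8 CPM in the controls and at 202, 211 and 208 CPM at day 5, a 12.2-fold rise (edgeR adjusted p = 1.26e-06). Angptl4, a lipoprotein lipase inhibitor, was at 54.3, 34.6 and 70.3 CPM in the controls and at 187, 200.2 and 218 CPM at day 5. Plin2, a coat protein of lipid droplets, rose by 1.39 ± 0.09. Cpt1a, which imports fatty acids into mitochondria, was at -0.02 ± 0.06 and not called. With library totals alone 18 rose and 1 fell.

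Respiratory genes fell slightly. The mitochondrial genome has 13 protein-coding genes, and 13 were called lower, with a median of -0.41, and 12 with library totals alone. Reads of nuclear copies of these genes cannot be told apart from them. Of 26 nuclear respiratory chain genes 17 were lower with a median of -0.19, but the count was 2 with library totals alone, 7 without control replicate 3, 8 without day-5 replicate 2 and 6 without day-5 replicate 3. The 12-library fit lost the calls of all 13 mitochondrial and all 17 nuclear genes. Sdhb, a subunit of complex II, was at 232, 232 and 255 CPM in the controls and at 185, 183 and 175 CPM at day 5, and its call was lost in the 12-library fit (edgeR adjusted p = 0.328), as were those of the other genes of both respiratory lists. Glycolysis had 5 genes higher and 7 lower of 20, and the list median changed sign with the scaling, from -0.10 to 0.05 with library totals, where 7 were higher and 1 lower. The 12-library fit called 2 higher and 1 lower. The rises numbered 3 without control replicate 3 or day-5 replicate 3. Slc16a1, the lactate and ketone transporter MCT1, was at 15.8, 19.5 and 13.2 CPM in the controls and at 87.0, 84.5 and 81.1 CPM at day 5 (edgeR adjusted p = 7.80e-06).

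Among stress programs, the integrated stress response rose and the other lists were mixed. Of 20 of its genes 17 rose and 1 fell, with a median of 1.09. Psat1, of serine synthesis, was at 26.8, 27.6 and 30.3 CPM in the controls and at 80.2, 86.7 and 94.7 CPM at day 5 (edgeR adjusted p = 5.84e-06). Mthfd2, of mitochondrial folate metabolism, rose by 1.79 ± 0.10, and Chac1, which breaks down glutathione, by 2.73 ± 0.27. Ddit3, encoding CHOP, was at 5.24, 7.39 and 6.08 CPM in the controls and at 7.02, 5.38 and 5.23 CPM at day 5 and was not called. Of 18 genes of the unfolded protein response 3 rose and 1 fell, against 10 higher calls with library totals alone and 1 in the 12-library fit, both of which lost the fall. Control replicate 2 stood above the other controls here: Hspa5, the chaperone BiP, was at 271, 603 and 362 CPM in the controls and at 573, 562 and 520.3 CPM at day 5. Without control replicate 2, 13 of the list rose, and without control replicate 1 or 3 or day-5 replicate 1, only 1 did.

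Of 13 heat shock genes 3 rose and 1 fell, and the list median changed sign with the scaling, from -0.14 to 0.01 with library totals. Without control replicate 1, 6 fell. The single fall, Hspa1a, was not called without control replicate 2 or 3 or day-5 replicate 2 or 3. Of 21 NRF2 targets and antioxidants 7 rose and 6 fell, while library totals alone gave 11 rises and the 12-library fit 2 falls. Hmox1, which breaks down heme, rose by 1.54 ± 0.19 and the metallothionein gene Mt2 by 2.02 ± 0.18, while Osgin1 fell by 1.75 ± 0.16. Nqo1, at -0.38 ± 0.13, was not called. Ribosome biogenesis genes rose in 17 of 24 cases, with Nop56, of snoRNA particles, at 0.87 ± 0.08. Of 49 ribosomal protein genes 31 were higher by small amounts (median 0.20), and the count was 13 without control replicate 1, 15 without day-5 replicate 1 and 46 with library totals alone. The 12-library fit lost these calls.

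Hormone and mineral genes showed single large changes. Ren1, renin of the juxtaglomerular cells, was at 53.4, 41.7 and 34.7 CPM in the controls and at 129, 111 and 146 CPM at day 5 (edgeR adjusted p = 0.000127). Akr1b7, made by the same cells, rose by 2.22 ± 0.17, while Ace, which makes angiotensin II, fell by 0.82 ± 0.11, a call lost in the 12-library fit. Edn1, endothelin 1, was at 1.02, 1.06 and 0.747 CPM in the controls and at 4.47, 5.82 and 6.54 CPM at day 5, and Npr3, the clearance receptor for natriuretic peptides, fell by 1.82 ± 0.13. Cyp27b1, which makes active vitamin D, was at 2.36, 3.996 and 2.32 CPM in the controls and at 13.7, 10.99 and 13.0 CPM at day 5. Kl, encoding the FGF23 co-receptor Klotho, fell by 0.64 ± 0.08 and Vdr, the vitamin D receptor, by 0.59 ± 0.06. Of 13 glucocorticoid-responsive genes 8 rose (5 in the 12-library fit) and 2 fell (1 there and with library totals alone). Zbtb16 was at 5.22, 5.38 and 9.58 CPM in the controls and at 54.4, 63.7 and 63.5 CPM at day 5 (edgeR adjusted p = 2.08e-05). Fkbp5 rose by 1.53 ± 0.14, and Tsc22d3, encoding GILZ, was at 0.65 ± 0.24 and not called.

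Prostaglandin genes were mixed, 3 higher and 5 lower of 14, with a median that changed sign under library totals, from -0.06 to 0.09. The falls numbered 2 without control replicate 3 or in the 12-library fit and 3 without day-5 replicate 1 or 2 or with library totals alone, where 5 genes were higher. Ptgs2, cyclooxygenase 2, was at 0.348, 0.251 and 0.463 CPM in the controls and at 1.54, 1.47 and 1.503 CPM at day 5. Of 13 iron genes 7 rose and 2 fell (1 fall with library totals alone). Slc40a1, the iron exporter ferroportin, rose by 0.97 ± 0.10, and Tfrc, the transferrin receptor, fell by 0.62 ± 0.12, a call lost in the 12-library fit. Cell death genes rose in 9 of 20 cases and fell in none, and the count was 5 without day-5 replicate 3, 5 in the 12-library fit and 14 with library totals alone. Mlkl, the executioner of necroptosis, was at 0.870, 0.880 and 0.824 CPM in the controls and at 2.60, 2.10 and 2.43 CPM at day 5. Casp4, encoding the inflammatory caspase-11, rose by 1.49 ± 0.26, while Nlrp3, at 0.59 ± 0.44, and Casp1, at 0.02 ± 0.35, did not pass.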

How the data were processed

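The authors deposited raw counts per gene, 1 column a library. Per the submitters' processing notes, reads were handled with fastp 0.20.0 and featureCounts on GRCm39; the sources used here do not give the aligner, annotation release or strand setting, so reads of overlapping genes on either strand cannot be told apart. The 6 columns of day 5 and control were taken by their labels. Genes kept by filterByExpr were fitted with edgeR 4.0.16 in R 4.3.3 (TMM factors, quasi-likelihood test, Benjamini-Hochberg adjusted p under 0.05), after the code was tested on simulated data. Alternatives were median-of-ratios factors, library totals alone, no filter, CPM of at least 1 in 3 libraries, DESeq2 1.42.0, limma-voom (limma 3.58.1), the replicate number as a block, all 12 libraries and each library left out. Counting intervals are exact, at 95%, and cover counting error only. The edgeR p-values weigh the difference between groups against the spread among the 3 samples of each group, a spread moderated across genes. They cover no other source of variation.

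The 66 gene lists and their members were chosen with earlier results of these data known. Genes named were 5 podocyte genes, the 15 largest rises and 15 largest falls above a mean log2 CPM of 1 whose groups did not overlap, the 3 called members of each list with the smallest adjusted p in each direction, and the 10 smallest adjusted p. Not all of these are printed. Other genes, among them all uncalled ones, were chosen after their values were seen. Results on some genes are not reported here.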

Additional observations from a re-analysis of the deposited data

How the results depend on the processing

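Against 6982 calls, the other settings gave 6963 with median-of-ratios factors, 7961 with library totals alone, 6993 with no filter, 6556 with the CPM filter, 6380 by DESeq2 and 6997 by limma-voom. Library totals alone gave 5934 higher and 2027 lower calls. The fit of all 12 libraries gave 2945 calls, 1936 higher and 1009 lower, and 87 of 262 named genes lost their call there; the cause was not tested. Falls lost all their calls there in the renin-angiotensin and fatty acid oxidation lists, and those of phosphate, Klotho and vitamin D genes went from 7 to 2. Rises of integrins and laminins went from 10 to 5 and those of keratins from 4 to 2, and the junction list went from 7 rises and 4 falls to 4 and 1. Leaving out 1 library gave 5283 to 6853 calls, 2668 to 3456 higher and 2615 to 3397 lower. No named gene changed direction under any of these settings. With the replicate block 6241 genes were called, 3137 higher and 3104 lower, and 5 named genes lost their call. Deviations of same-numbered libraries correlated at -0.089, 0.176 and -0.014, and those of differently numbered libraries at -0.150 to 0.161. Deviations from a mean of 3 libraries constrain each other, so these values cannot decide whether the numbers pair the mice. The labels do not state a pairing. The fall in the mitochondrial share, -3.88 points, ran from -4.34 to -3.45 with 1 library left out and was -3.87 over protein-coding mitochondrial genes. Genes with few counts in the controls have wide counting intervals, and their fold changes are the least precise.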

Other observations

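The genes below were chosen after their values were seen and get no test as a group. Of 13 tested genes known to be male-biased or androgen-dependent in mouse kidney, 11 fell, and the median was -1.06 on the log2 scale. Kap, the androgen-regulated kidney protein, was at 25140, 28582 and 22258 CPM in controls 1 to 3 and at 16324, 19020 and 17715 CPM at day 5 (edgeR adjusted p = 0.00605). Cyp2e1, a cytochrome P450, was at 1128, 1062 and 1064 CPM in the controls and at 407, 533 and 455 CPM at day 5 (edgeR adjusted p = 4.62e-05). Both genes were lower in every day-5 library than in any control, as were 4727 of the 18180 genes tested. Gusb, at -0.06 ± 0.10, was not called. Of 4 female-biased genes 1 was called, Cyp4a14, at 57.7, 33.1 and 33.5 CPM in the controls and at 228, 109 and 215 CPM at day 5.

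Several single genes outside the lists moved far. Shisa3, a membrane adaptor gene, was at 8.03, 7.94 and 8.68 CPM in the controls and at 0.466, 1.02 and 0.662 CPM at day 5. Tlr2, a receptor for bacterial lipoproteins, was at 1.34, 1.01 and 1.26 CPM in the controls and at 10.97, 9.67 and 9.82 CPM at day 5. Cish, a target of STAT5, was at 16.4, 29.7 and 13.8 CPM in the controls and at 5.67, 5.29 and 5.21 CPM at day 5. In all 3 genes the groups did not overlap, as in 51.7% of all tested genes. Fat tissue transcripts differed by library and not by group: Adipoq, encoding adiponectin, was at 4.001, 13.3 and 1.596 CPM in the controls and at 0, 19.5 and 1.86 CPM at day 5.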
